A study of Bos taurus with 30 samples.

Results

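The miR-23/27/24 miRNAs of the calf ARC were taken as every entry of the deposited miRNA table whose name has the stem bta-miR-23a, bta-miR-23b, bta-miR-27a, bta-miR-27b or bta-miR-24, with any arm. This gave 8 of the 1030 mature miRNAs listed, namely miR-23a, miR-23b-3p, miR-23b-5p, miR-24, miR-24-3p, miR-27a-3p, miR-27a-5p and miR-27b, and 7 of these 8 had enough reads to be tested. The rule used names only, not expression, though it was set with earlier results of these data known.

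Small RNA was sequenced from the ARC, a nucleus of the hypothalamus that receives cues on energy status and takes part in the control of reproduction, in 30 Holstein-Friesian bull calves with 1 library per calf. From 2 to 12 weeks of age, 15 calves on the high plane of nutrition (HI) were offered 1.5 kg of milk replacer (10 litres) daily with concentrates fed to appetite, and 15 calves on the moderate plane (MOD) had 4 litres, made from 0.5 kg of replacer, with concentrates limited to 0.5 kg. All tissue was collected at 12 weeks, so that every calf had the same age at sampling and the diets differed for the same period. The comparison of HI with MOD asks whether early nutrition alters miRNA in this nucleus, and no untreated group was part of the design.

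A miRNA is a short RNA cut from a hairpin precursor. It lowers the output of mRNAs that pair with its seed, the bases near its 5′ end, and either arm of the hairpin can give a mature miRNA, named 5p or 3p. Mammals carry the miR-23, miR-27 and miR-24 precursors in a pair of clusters, each transcribed as a unit. The miR-23a/27a/24-2 cluster is known from blood cells, muscle and immune cells, and the miR-23b/27b/24-1 cluster from blood vessels, where it has been linked to angiogenesis. The main arms of miR-23a and miR-23b differ by a single base near the 3′ end, as do those of miR-27a and miR-27b, so that each pair shares a seed, whereas miR-24-3p is the same RNA from either cluster. In RefSeq's cattle annotation (assembly ARS-UCD2.0), MIR23A, MIR27A and MIR24-2 are consecutive genes on chromosome 7 between the coding genes NANOS3 and ZSWIM4 and overlap the uncharacterised gene LOC132345691. MIR23B, MIR27B and MIR24-1 are consecutive on chromosome 8, inside AOPEP, which encodes an aminopeptidase, between FBP1 and FANCC. The reads had been aligned to another assembly, ARS-UCD1.2, so no coordinates are given, and no mature sequence was at hand to print.

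Values are reads scaled to a common library total (CPM), after the library sizes were adjusted so that most miRNAs are level between libraries (trimmed mean of M-values, TMM). Reads on miRNAs ranged from 6291376 to 21083250 per library, with a median of 8512614 in HI and 8811432 in MOD. Depth fell into 21 shallower libraries (12 HI, 9 MOD, up to 8988039 reads) and 9 deeper ones (3 HI, 6 MOD, from 17193358 reads). A count of 3 reads, the limit that a count of 0 allows, was worth 0.138 to 0.558 CPM depending on the library, counting error only. In 9 calves (5 HI) a list of pituitary and epithelial miRNAs (the miR-200 and miR-183 families and miR-375) stood apart from the other 21 calves by a gap, and its summed level ran from 354 to 90765 CPM in HI and from 156 to 76749 CPM in MOD. All 7 calves (4 HI) that stood apart in a mural and fibroblast list (miR-143, miR-145, miR-199 and miR-214) were among these 9. Within the tissue as labelled, neuronal miRNAs (miR-124, miR-9 and others) summed to between 16001 and 95934 CPM in every library. That sum includes both miR-124a and miR-124b, which hold the same values. The samples are bulk tissue, in which fewer cells of a type and less RNA per cell cannot be told apart.

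The miR-23/27/24 miRNAs together took 4.34 ± 0.80% (SD, n = 30) of the reads on miRNAs, from 3.38% to 7.42% in single calves. Most of this was miR-27: miR-27a-3p and miR-27b made up 92.0 ± 1.22% (SD, n = 30) of the summed values of the clusters.

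miR-27b, of the miR-23b cluster, was the most abundant member and ranked 9 among all miRNAs by mean value, at 24929 ± 7573 CPM (SD, n = 30). It ran from 16913 CPM in MOD calf A47874 to 49209 CPM in HI calf A27823. miR-27a-3p, its near-identical counterpart in the miR-23a cluster, ranked 17 at 16169 ± 5540 CPM (SD, n = 30). HI calf A27823 was highest for both, and the low end of both held calves of either diet. Both miR-27 miRNAs are known as repressors of fat cell formation and of lipid genes such as PPARG. miR-23b-3p ranked 62 at 2183 ± 491 CPM (SD, n = 30), miR-24-3p ranked 87 at 937 ± 196 CPM (SD, n = 30) and miR-23a ranked 139 at 319 ± 101 CPM (SD, n = 30). miR-23 has been studied as a regulator of glutaminase and of cell survival genes, and miR-24 of the cell cycle.

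The remaining 3 entries were scarce. The entry named miR-24, whose arm its name does not give, had 9.63 ± 2.096 CPM (SD, n = 30), which is 34 to 273 reads per library. The 5p arm of miR-27a had 1.30 ± 0.581 CPM (SD, n = 30), a median of 11 reads. The 5p arm of miR-23b had 0 to 5.5 reads, with 28 of 30 libraries at or under 3 reads and 3 at 0, and did not pass the filter on low values, so it was left out of the test across miRNAs. The 3p arm of miR-27a thus exceeded its 5p arm by 13.37 ± 0.55 on the log2 scale (SD, n = 30).

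The order of levels was the same in all 30 calves: miR-27b, miR-27a-3p, miR-23b-3p, miR-24-3p, miR-23a, miR-24, miR-27a-5p, miR-23b-5p, each higher than the next in 30 of 30. The ranges over calves overlapped for 2 neighbouring pairs, miR-27b with miR-27a-3p and miR-23b-3p with miR-24-3p, so for these a level in 1 calf did not tell the 2 miRNAs apart although the ratio within each calf did. miR-27 exceeded miR-23 in both clusters, by unlike amounts. In the miR-23b cluster miR-27b exceeded miR-23b-3p by 3.49 ± 0.27 (log2 ratio, SD, n = 30), and in the miR-23a cluster miR-27a-3p exceeded miR-23a by 5.65 ± 0.35. Levels of different miRNAs also carry the ligation preferences of library preparation, which were not measured here.

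**Figure D1:**
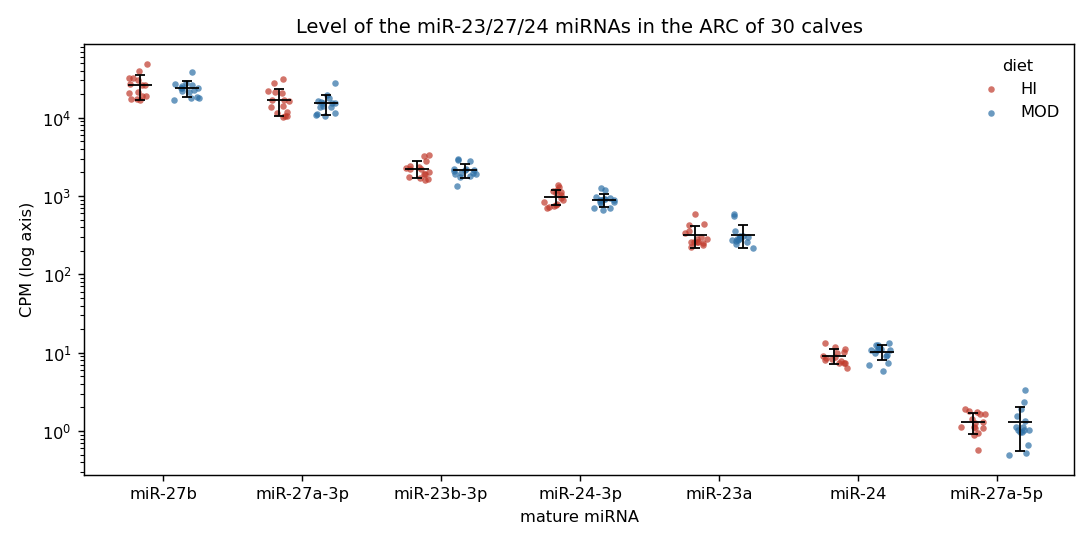
Values of the 7 tested miR-23/27/24 miRNAs in CPM (log axis) in each HI and MOD calf (points, 15 per diet), with bars for mean and SD. The ranges of the diets overlapped for each miRNA, and levels ran from 49209 CPM for miR-27b down to 0.490 CPM for miR-27a-5p.

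Diet was compared first. No member passed the test between HI and MOD: 0 of 7 tested members passed an adjusted p of 0.1 with a fold change above 1.5 (limma, Benjamini-Hochberg over all tested miRNAs), where 0 of all 476 passed, which is 0% of miRNAs tested. An unadjusted p under 0.05 was reached by 0 of 7 members against 4.41% of all tested miRNAs (21 of 476), made up of 1.68% higher and 2.73% lower in HI. edgeR's quasi-likelihood test on recovered reads of 29 libraries also called 0 of 477 miRNAs, with 17 at an unadjusted p under 0.05. DESeq2 called 1, miR-2419-3p, with 19, and neither tool had a member among those under 0.05. A fold change above 1.5 was seen in 0 of 7 members and in 1.68% of all tested miRNAs. Higher means in HI were found for 5 of 7 members, against 49.4% of all tested, and the median log2 fold change was 0.10 for the members and -0.00 for all.

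For miR-27b the HI calves ran from 17003 to 49209 CPM with a median of 25825 CPM, and the MOD calves from 16913 to 38652 CPM with a median of 23796 CPM. The HI calves reached higher but began at the same level, and 8 of 15 lay above the MOD median. As a log2 fold change, HI exceeded MOD by 0.11 (standard error 0.14, 95% interval -0.18 to 0.39, limma adjusted p = 0.982). miR-27a-3p behaved alike, with 10167 to 31602 CPM and a median of 16460 CPM in HI against 10617 to 27977 CPM and a median of 15316 CPM in MOD. Its log2 fold change was also 0.11 (standard error 0.16, 95% interval -0.21 to 0.44, limma adjusted p = 0.982).

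For miR-23b-3p the HI calves ran from 1600 to 3385 CPM around a median of 2212 CPM and the MOD calves from 1355 to 2962 CPM around 2119 CPM. The spans overlapped over most of their length. The log2 fold change was 0.05 (standard error 0.11, 95% interval -0.18 to 0.28, limma adjusted p = 0.984). miR-23a ran from 223.5 to 598 CPM with a median of 279 CPM in HI and from 218 to 584 CPM with a median of 285 CPM in MOD, a log2 fold change of -0.02 (standard error 0.14, 95% interval -0.30 to 0.27, limma adjusted p = 0.985). The highest miR-23a values came from both diets, in HI calf A37824 (598 CPM) and MOD calves A41971 (584 CPM) and A73759 (554 CPM).

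miR-24-3p, made from both clusters, ran from 706 to 1402 CPM with a median of 958 CPM in HI and from 662 to 1265 CPM with a median of 885 CPM in MOD. Its log2 fold change, 0.12 (standard error 0.11, 95% interval -0.09 to 0.34, limma adjusted p = 0.978), was the largest increase among the 7 members and was smaller than the spread between calves. The entry miR-24 went the other way without passing the test, with 6.32 to 13.4 CPM and a median of 8.498 CPM in HI against 5.90 to 13.3 CPM and a median of 10.9 CPM in MOD. Only 3 of 15 HI calves lay above the MOD median, and the log2 fold change was -0.17 (standard error 0.11, 95% interval -0.40 to 0.07, unadjusted p = 0.158, limma adjusted p = 0.912). Adding a term for the animal code class described further on gave -0.04. For miR-27a-5p, with few reads per library, HI had 0.571 to 1.93 CPM and MOD 0.490 to 3.31 CPM, a log2 fold change of 0.10 (standard error 0.18, 95% interval -0.27 to 0.48, limma adjusted p = 0.982).

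miR-23b-5p, below the filter, had a difference of 0.07 on the log2 scale (permutation p = 0.578, n = 15 per diet), at a median of 1.5 reads. None of the 7 intervals reached a fold change of 1.5 in either direction. As folds of HI over MOD the lowest bound was 0.759, for miR-24, and the highest was 1.39, for miR-27a-5p. The pituitary list did not differ between diets beyond the spread either (permutation test, p = 0.594, 0.827 adjusted over 8 lists). With its score as a term the 7 log2 fold changes lay between -0.16, for miR-24, and 0.09, for miR-24-3p, and the smallest limma adjusted p was 0.759. With the endothelial score as a term they were 0.12 for miR-23b-3p, 0.17 for miR-24-3p, 0.19 for miR-27a-3p and 0.17 for miR-27b, with unadjusted p = 0.0752, 0.0614, 0.138 and 0.121, and the smallest limma adjusted p was 0.573.

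**Figure D2:**
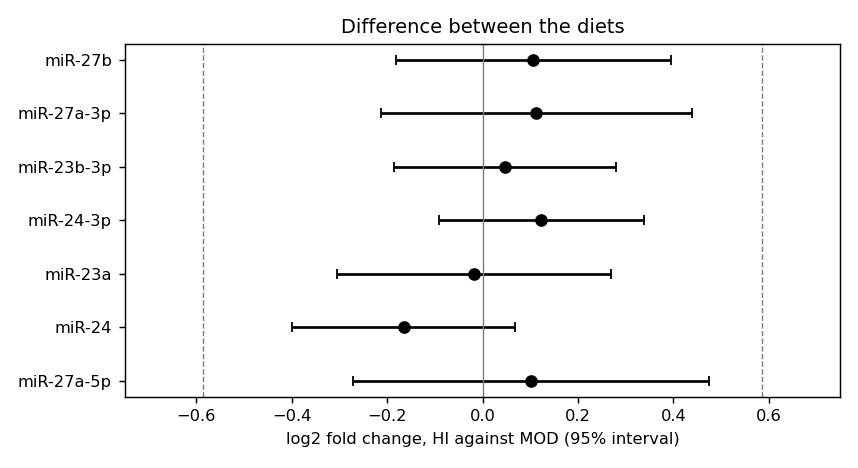
Log2 fold change of HI against MOD for the 7 tested members (points) with 95% intervals from limma, n = 15 calves per diet, and dashed lines at a fold change of 1.5 in either direction. Each interval spans 0 and stays inside the dashed lines, the widest being that of miR-27a-5p at -0.27 to 0.48.

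Calves also differed along their animal codes. The titles of the samples give animal codes, and the 9 calves with the lowest codes (7 HI, 2 MOD, all among the shallower libraries) had been set apart in earlier work from values of these data, so the differences between the classes are a description with no test. With the deposited scaling miR-27a-3p was 20465 ± 6116 CPM in these 9 calves against 14328 ± 4204 CPM (SD) in the other 21, and miR-27b was 30816 ± 8966 CPM against 22406 ± 5360 CPM. miR-24-3p was 1113 ± 165 CPM against 861 ± 158 CPM, with 9 of the 9 above the median of the other 21. The entry miR-24 was lower, at 7.99 ± 2.22 CPM against 10.3 ± 1.64 CPM, with 1 of the 9 above that median. miR-23a and miR-23b-3p were near level, with log2 differences of 0.16 and 0.11. As mean percent of reads, without the TMM adjustment, the differences were smaller. The 9 and the other 21 had 1.76 and 1.48 for miR-27a-3p, and 2.66 and 2.33 for miR-27b. For miR-24-3p they had 0.0968 and 0.0904, and the lowest of the 9 had 0.0837. miR-23a (0.0297 and 0.0320) and miR-23b-3p (0.199 and 0.223) were then lower in the 9. Marker lists moved with the class: the mean pituitary score was 1.103 in the 9 and -0.47 in the other 21, the mural score 0.42 and -0.18, and the neuron score -0.33 and 0.14. Of the 9 calves that stood apart in the pituitary list 4 were among the lowest codes. Their part in the class difference was not tested.

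Because 7 of those 9 calves were HI, the diet was compared inside each class, with the limit that the class came from these data. Among the 9, HI minus MOD was 0.46 for miR-27a-3p, 0.40 for miR-27b and 0.30 for miR-24-3p on the log2 scale (exact permutation tests, p = 0.222, 0.222 and 0.0833, 7 HI and 2 MOD, where the smallest p is 0.0278). Among the other 21 the same differences were -0.23, -0.19 and -0.10 (exact permutation tests, p = 0.178, 0.191 and 0.390). The sign turned for each of these 3 miRNAs, and also for miR-24 (0.34 among the 9 and -0.17 among the 21), miR-23a (0.19 and -0.17) and miR-23b-3p (0.17 and -0.04), while miR-27a-5p was at 0.17 and 0.06. With the code class as a term in limma the log2 fold changes of miR-27a-3p, miR-27b and miR-24-3p were -0.07, -0.05 and -0.00. A test of whether the diet difference itself depended on the class, run for the 7 members and for both the code and the depth class, gave 0 of 14 with an adjusted p under 0.05 (permutation tests). Its smallest p was 0.0426 for miR-24-3p by code class, 0.303 adjusted.

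Between the depth classes 0 of 7 members passed the test. miR-24 was 11.05 ± 1.16 CPM in the 9 deeper libraries and 9.02 ± 2.13 CPM in the 21 shallower ones, a log2 difference of 0.29 (standard error 0.12, unadjusted p = 0.0215, limma adjusted p = 0.783 with diet in the model). It was the 1 member of 7 with an unadjusted p under 0.05, against 5.04% of all tested miRNAs, and 0 of 476 had an adjusted p under 0.1. All 9 calves of the lowest codes were shallower, which left 12 other shallower libraries for a comparison at 1 depth, given as a description. miR-24 was 9.79 ± 1.78 CPM (SD) in those 12, against 7.99 ± 2.22 CPM in the 9. miR-24-3p was 844 ± 153.4 CPM in the 12 against 1113 ± 165 CPM in the 9, and miR-27a-3p was 13729 ± 4902 CPM against 20465 ± 6116 CPM.

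The relation between the clusters was read from ratios within a library, which do not depend on scaling between libraries. miR-27b exceeded miR-27a-3p in every calf by nearly the same factor. The ratio had a median of 1.57 and ran from 1.38 in MOD calf A41971 to 1.67 in HI calf A37840, a log2 ratio of 0.64 ± 0.07 (SD, n = 30). The ratio of miR-23b-3p to miR-23a was much less fixed. Its median was 6.94 and it ran from 4.39 in HI calf A17855 to 10.6 in HI calf A27823, a log2 ratio of 2.79 ± 0.35 (SD, n = 30).

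Neither ratio differed between diets beyond the spread. HI minus MOD was -0.01 for miR-27b over miR-27a-3p (standard error 0.03, permutation p = 0.808) and 0.07 for miR-23b-3p over miR-23a (standard error 0.13, permutation p = 0.618). Within a cluster it was 0.13 for miR-27a-3p over miR-23a (permutation p = 0.320) and 0.06 for miR-27b over miR-23b-3p (permutation p = 0.555). For the arms, miR-27a-5p over miR-27a-3p, it was -0.01 (permutation p = 0.957). All 5 ratios had an adjusted p of 0.957, and within depth or code classes the sign of each of the 5 turned in at least 1 class.

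**Figure D3:**
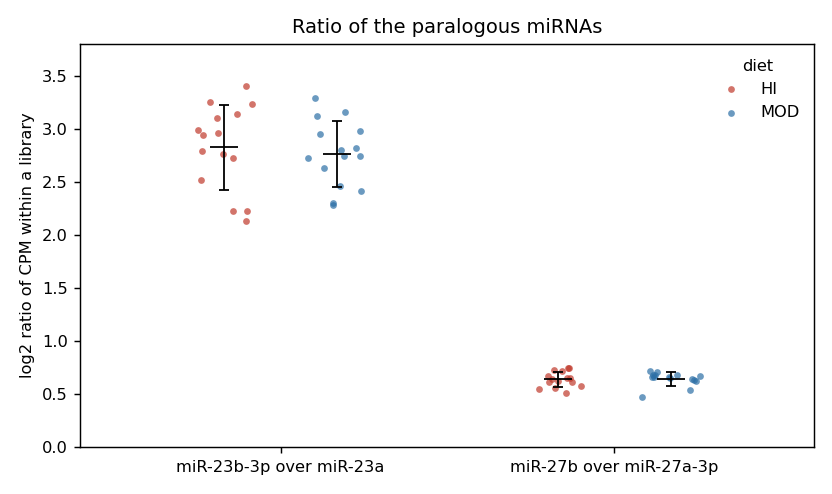
Log2 ratios of miR-23b-3p to miR-23a and of miR-27b to miR-27a-3p in each HI and MOD calf (points, 15 per diet), with mean and SD. The miR-27 ratio keeps to 0.47 to 0.74 in all 30 calves, while the miR-23 ratio spreads from 2.13 to 3.41.

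Across calves the levels of the 5 abundant members were correlated, and every one of their 10 pairs had a positive Pearson's r with an adjusted p under 0.05 on the log2 CPM scale. The strongest was miR-27a-3p with miR-27b, from different clusters (r = 0.995, permutation p = 1e-05, the smallest that 100000 resamples can give, rho = 0.992 with the same p, adjusted p = 2e-05 and 2.5e-05, n = 30). Leaving out the 2 most extreme calves gave r = 0.996, and it ran from 0.992 to 0.995 within the depth and code classes. It ranked 17 of all 113050 pairs of tested miRNAs, where the median r was 0.01. miR-23a with miR-23b-3p, the counterpart pair, had the lowest r of the 10 (r = 0.509, permutation p = 0.00417, rho = 0.435, permutation p = 0.0168, adjusted p = 0.00417 and 0.0168, n = 30). Without the 2 farthest calves, A37824 and A41971, it was 0.386.

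Pairs of a miR-23 with a miR-27 lay between these, whether from 1 cluster or across clusters. miR-23b-3p with miR-27b had r = 0.738 and rho = 0.758 (permutation p = 1e-05 for both, n = 30), and miR-23a with miR-27a-3p had r = 0.660 and rho = 0.604 (permutation p = 0.00019 and 0.00058, n = 30). Across clusters, miR-23b-3p with miR-27a-3p had r = 0.733 and rho = 0.754 (permutation p = 1e-05 for both), and miR-23a with miR-27b had r = 0.612 and rho = 0.566 (permutation p = 0.00057 and 0.00133). miR-24-3p, which either cluster can supply, had r = 0.824 with miR-27a-3p, 0.803 with miR-27b, 0.708 with miR-23a and 0.695 with miR-23b-3p. The miRNAs of 1 precursor unit therefore did not have the highest correlation, which was that of the 2 near-identical miR-27 miRNAs.

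These correlations depended on how libraries were scaled. With values divided by library size alone, 1 of the 10 pairs kept an adjusted p under 0.05, miR-27a-3p with miR-27b (r = 0.977, adjusted p = 0.0001). The other 9 had r between 0.03, for miR-23a with miR-23b-3p, and 0.36, for miR-24-3p with miR-27a-3p. Within the 21 calves below the gap of the pituitary list, with the deposited scaling, miR-23a had r between 0.33 and 0.37 with the other 4 members, and miR-27a-3p with miR-27b had 0.996 (permutation p = 1e-05). The other 5 pairs there had r of 0.780 for miR-23b-3p with miR-27b, 0.761 for miR-23b-3p with miR-27a-3p, and 0.696, 0.691 and 0.593 for miR-24-3p with miR-27a-3p, miR-27b and miR-23b-3p (permutation p from 6e-05 to 0.00529). Within the 9 calves above the gap, miR-27a-3p with miR-27b had 0.996 (exact permutation p = 2.76e-06), and miR-23a had 0.849 with miR-27a-3p, 0.814 with miR-27b, 0.799 with miR-24-3p and 0.525 with miR-23b-3p (exact permutation p = 0.00399, 0.00672, 0.00897 and 0.145).

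**Figure D4:**
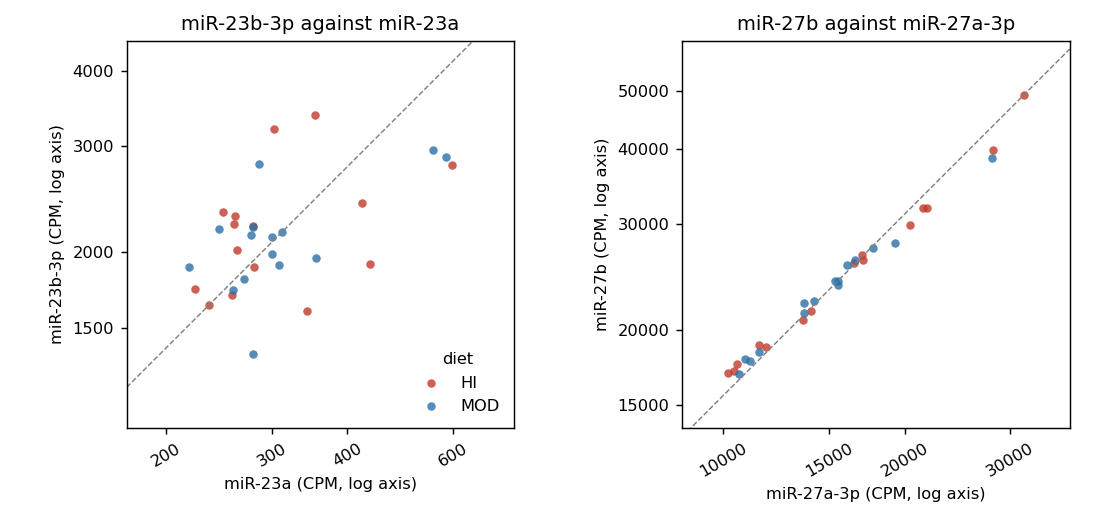
Values of miR-23b-3p against miR-23a and of miR-27b against miR-27a-3p in CPM, both axes log, 1 point per calf by diet, with a dashed line at the geometric mean ratio. The miR-27 points lie along the line (r = 0.995), and the miR-23 points scatter about it (r = 0.509).

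How far counting itself tied these values was not tested. Reads too short to cover the base at which a pair differs could be counted for both, and the mature sequences were not at hand. Recovered reads were whole numbers in 30 of 30 libraries for miR-23a, miR-24, both arms of miR-27a and miR-27b. They were not whole in 12 of 30 libraries for miR-23b-3p, 15 of 30 for miR-24-3p and 13 of 30 for miR-23b-5p, within 0.05 reads. miR-23b-3p also had a near duplicate: the separately named miR-10174-3p was above it in 30 of 30 calves, by 77.5 to 537 reads or 0.514% to 0.874%, and its r with miR-23b-3p was 0.99999. The 5p arm of miR-10174 had 0 to 7 reads. The value of miR-23b-3p is therefore uncertain as to which precursor it counts.

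The miRNAs whose pattern over the 30 calves was most like each abundant member, by Pearson's r of log2 CPM, were as follows. For miR-23a they were miR-199b (0.936), miR-199c (0.930) and miR-199a-3p (0.930), miRNAs known from pericytes and fibroblasts. With library size alone as scaling these were each at 0.801. miR-199b and miR-199a-3p belong to the mural list, on which 7 calves stood apart. Inside the 23 calves below its gap r was 0.592 for miR-199b, 0.590 for miR-199c and 0.590 for miR-199a-3p. Inside the 7 above it r was 0.902, 0.963 and 0.963. For miR-23b-3p they were miR-10174-3p, miR-16a (0.867) and miR-15a (0.825). For miR-27a-3p they were miR-151-5p (0.896), miR-16b (0.871) and miR-151-3p (0.864), and for miR-27b they were miR-151-5p (0.885), miR-455-5p (0.868) and miR-16b (0.855). For miR-24-3p they were miR-532 (0.856), miR-11977 (0.855) and miR-151-3p (0.832). With library size alone miR-27a-3p had r of 0.491 with miR-151-5p, and miR-24-3p had 0.443 with miR-532, 0.485 with miR-11977 and 0.333 with miR-151-3p. The nearest miRNAs of miR-23a and miR-23b-3p had no name in common, whereas those of miR-27a-3p and miR-27b shared 2 of 3.

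Lists of cell type miRNAs set the 2 miR-23 miRNAs further apart. Of 30 relations between 6 lists and the 5 abundant members, 15 had an adjusted p under 0.05. With library size alone 7 did, not all of them among the 15. The list score is the mean of the centred log2 values of its miRNAs. miR-23b-3p rose with the endothelial list, both arms of miR-126 (r = 0.834, rho = 0.826, permutation p = 1e-05 for both, adjusted p = 0.00015 and 0.0003, n = 30). Without the 2 farthest calves r was 0.786, and it was 0.834 in the shallower and 0.778 in the deeper libraries, 0.749 in the 9 lowest codes and 0.854 in the other 21. With library size alone it was 0.694 (adjusted p = 0.0009). In the 21 calves below the gap of the pituitary list it was 0.836 (permutation p = 2e-05), and in the 9 above 0.9496 (exact permutation p = 0.00016). miR-126 itself is a marker of endothelium and summed to between 12707 and 27576 CPM in HI and 13326 and 25019 CPM in MOD.

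miR-23a did not show this relation to miR-126 beyond the spread (r = 0.247, permutation p = 0.189, adjusted p = 0.218, rho = 0.2503, permutation p = 0.183, n = 30), and with library size alone r was -0.36. Among the 6 lists with correlations over all calves its strongest relation was an inverse one with the neuron list (r = -0.866, rho = -0.702, permutation p = 1e-05 and 3e-05, adjusted p = 0.00015 and 0.00045, n = 30). Without the 2 farthest calves, A37824 and A41971, r was -0.774, within the depth and code classes it ran from -0.961 to -0.855, and with library size alone it was -0.596 (adjusted p = 0.0085). With miR-124a and miR-124b, which hold the same values, counted once, r was -0.864. It rested on the calves that stood apart in the pituitary list: among the 9 above the gap r was -0.781 (exact permutation p = 0.0126), and among the 21 below it was -0.212 (permutation p = 0.355). For miR-23b-3p the relation to the neuron list was -0.292 over all calves (permutation p = 0.116, adjusted p = 0.158) and 0.337 (permutation p = 0.136) among the 21.

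**Figure D5:**
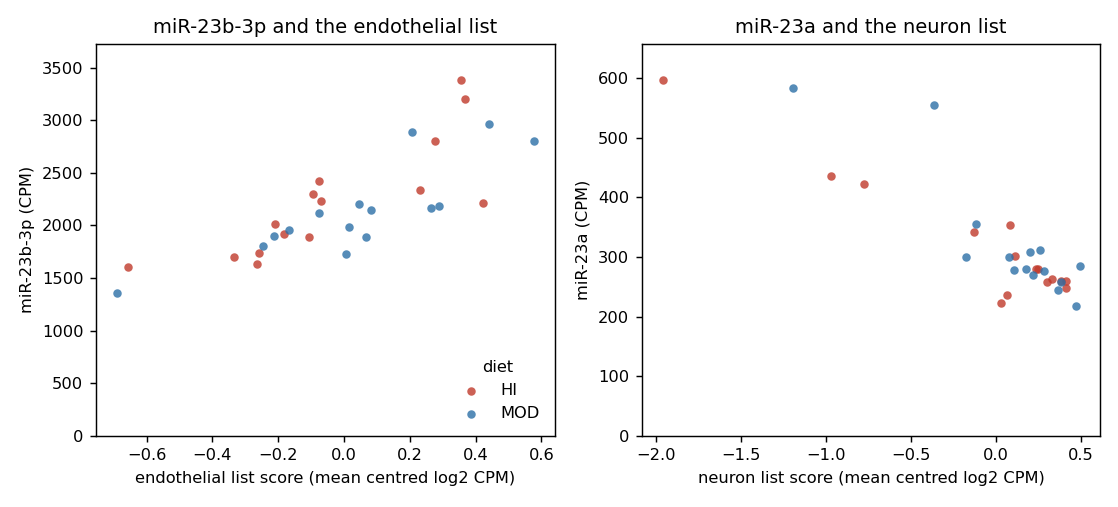
CPM of miR-23b-3p against the endothelial list score and of miR-23a against the neuron list score, 1 point per calf by diet (n = 30). The values of r are those of log2 CPM. miR-23b-3p climbs with the endothelial score over its whole range (r = 0.834), while the slope of miR-23a (r = -0.866) is carried by the few calves with the lowest neuron scores and the highest miR-23a.

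With the deposited scaling the level of miR-23a split with the mural list. In the 7 calves above the gap of the mural list miR-23a was 354 to 598 CPM and in the 23 below 218 to 342 CPM, so the sets did not overlap in CPM. As reads over library size the sets did overlap. A42931, above the gap, had 6425 of 21083250 reads, a smaller share than the 3284 of 7974195 in A93744, below it. Correlations inside the sets are given with the deposited scaling only. The 7 calves above the gap (4 HI, 3 MOD) were A37824, A17855, A31979 and A42931 on HI and A41971, A73759 and A57867 on MOD. Since calves so separated give no pooled correlation, r was taken inside each set and adjusted over 20 such relations. For miR-23a and the mural list it was 0.983 in the 7 (exact permutation p = 0.000397, adjusted p = 0.00397) and 0.566 in the 23 (permutation p = 0.00506, adjusted p = 0.0253). Across the gap of the pituitary list the sets overlapped, with 299.8 to 598 CPM in the 9 above and 218 to 311 CPM in the 21 below. For miR-23a and that list r was 0.952 in the 9 (exact permutation p = 3.03e-05, adjusted p = 0.000606) and 0.041 in the 21 (permutation p = 0.859, adjusted p = 0.859). The entries miR-24 and miR-27a-5p were not set against the lists. miR-27a-3p, miR-27b and miR-24-3p shared the relations above the gaps. With the mural list in the 7 calves r was 0.916 for miR-27a-3p, 0.877 for miR-27b and 0.882 for miR-24-3p (exact permutation tests, adjusted p = 0.0284, 0.0347 and 0.00397). With the pituitary list in the 9 it was 0.820, 0.787 and 0.753 (exact permutation tests, adjusted p = 0.0273, 0.0309 and 0.0394). Below the gaps none of these 3 passed with either list (permutation tests, adjusted p from 0.296 to 0.626). For miR-23b-3p none of the 4 relations passed. With the pituitary list it had r = 0.398 in the 9 (exact permutation p = 0.284), which was 0.904 without the 2 farthest calves, and -0.140 in the 21 (permutation p = 0.548). Whether the mural, pituitary or neuronal content of a dissection accounts for the level of miR-23a was not tested.

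The other 3 abundant members stood between. miR-27a-3p, miR-27b and miR-24-3p had r of 0.628, 0.631 and 0.556 with the endothelial list and of -0.607, -0.563 and -0.659 with the neuron list (all adjusted p under 0.05, permutation tests). By rank the neuron relations of miR-27a-3p and miR-27b did not pass (rho = -0.351 and -0.341, permutation tests, adjusted p = 0.0937 and 0.101), and without the 2 farthest calves r was -0.387 and -0.342. With library size alone none of the 3 kept its relation to the endothelial list, where r was 0.09, 0.14 and -0.00. miR-27a-3p kept that to the neuron list (r = -0.564, adjusted p = 0.0173). Among the 21 calves below the gap of the pituitary list the endothelial relations were 0.727, 0.717 and 0.572, whereas the neuronal ones were -0.023, -0.021 and -0.106. Among the 9 above it the endothelial relations were 0.622, 0.613 and 0.774. The neuronal ones there were -0.859, -0.858 and -0.753 (exact permutation p = 0.00212, 0.00216 and 0.0183). Of the remaining lists, erythroid miRNAs had 4 positive relations with an adjusted p under 0.05, with miR-23b-3p, miR-27a-3p, miR-27b and miR-24-3p. These had r of -0.31, -0.39, -0.35 and -0.36 in the 9 lowest codes against 0.76, 0.78, 0.78 and 0.67 in the other 21, and none kept an adjusted p under 0.05 with library size alone. Leukocyte (positive), oligodendrocyte and choroid plexus miRNAs (both negative) had 1 each. By rank the oligodendrocyte relation, with miR-23a, and the choroid plexus one, with miR-27b, did not pass (permutation tests, adjusted p = 0.0604 for both). The leukocyte relation, with miR-23b-3p, was 0.021 in the 9 lowest codes and 0.741 in the other 21, where miR-27a-3p, miR-27b and miR-24-3p went from -0.19, -0.15 and -0.19 to 0.79, 0.80 and 0.64. These differences between the code classes were not tested.

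The ratio between the miR-23 miRNAs was set against the same lists after the levels had been seen. The ratio is free of scaling between libraries, but the list scores are not. miR-23b-3p over miR-23a rose with the neuron list (r = 0.693, rho = 0.679, permutation p = 2e-05 and 7e-05, adjusted over 4 relations p = 6e-05 and 0.00028, n = 30) and with the endothelial list (r = 0.467, permutation p = 0.00901, adjusted p = 0.00901, rho = 0.479, permutation p = 0.00786). Without the 2 farthest calves these were 0.672 and 0.298, so the endothelial one leaned on those calves. With library size alone the neuron relation was 0.577 and the endothelial one 0.719, which turned their order. Among the 21 calves below the gap they were 0.465 (permutation p = 0.0339) and 0.752 (permutation p = 0.00012). The small variation in miR-27b over miR-27a-3p was related to the neuron list as well (r = 0.730, rho = 0.471, permutation p = 3e-05 and 0.00889), but among the 21 calves r was 0.036 (permutation p = 0.875). Among the 9 calves above the gap r was 0.782 (exact permutation p = 0.012). With the endothelial list the miR-27 ratio ran the other way from the miR-23 ratio (r = -0.483, rho = -0.504, permutation p = 0.00747 and 0.00526, adjusted p = 0.00901 and 0.00889), and among the 21 r was -0.565 (permutation p = 0.00696). With library size alone it turned to 0.135 (permutation p = 0.479).

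HI calf A37824 stood apart in several members with the deposited scaling, where its values had the largest total of the 30 libraries (1429908). It was highest of 30 for miR-23a, at 2.14 times the median of all calves, and for miR-24-3p, at 1.58 times, and it came 2nd for miR-27a-3p (1.82 times) and miR-27b (1.66 times). It was 6th for miR-23b-3p (1.31 times) and 29th for miR-24 (0.663 times). As reads over library size it was highest for neither miR-23a nor miR-24-3p. For miR-23a it had 3215 of 7692951 reads, a smaller share than the 8853 of 17795173 in A73759. For miR-24-3p it had 7543.5, a smaller share than the 9865 of 8801418 in A27823. A37824 also had the highest score on the mural and on the pituitary list. Leaving it out kept all 10 pairs of members at an adjusted p under 0.05 and the relation of miR-23a to the neuron list at r = -0.842.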

How the data were processed

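The authors trimmed adapters, kept reads of 15 to 28 bases, removed other short RNAs and quantified known bovine miRNAs with miRDeep2 and Bowtie on ARS-UCD1.2. The processing notes list FastQC 0.11.8, cutadapt 2.6, R 3.4 and edgeR 3.5. A stranded RNA kit is named in the labels and a small RNA kit in the paper's methods. The deposited signal values, 1 per calf and miRNA, are called counts but are decimals with the form of CPM over TMM-scaled library sizes. Other columns of per-calf values numbered 0. Since they were not counts, limma was the test.

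Here, limma 3.58.1 in R 4.3.3 (lmFit, eBayes with trend) was fitted to log2(CPM + 0.25) for all 30 libraries, with Benjamini-Hochberg adjustment over 476 miRNAs. The fold changes are on that scale, which understates changes of low miRNAs. Of 1030 entries 863 had a read. The filter (filterByExpr of edgeR 4.0.16) kept miRNAs reaching 1.16 CPM, the value of 10 reads in a library of median depth, in 14 or more libraries. Recovered reads came from dividing values by the worth of 1 read in a library. Between 94.5% and 97.9% of values under 200 reads were whole within 0.05 reads, and calf A31979 was left out of count tests (edgeR, and DESeq2 1.42.0) because 94.8% of its values up to 20 times the smallest were whole within 0.1 of a step, where 95% was required and the other 29 libraries passed. Permutation tests were two-sided with 100000 resamples, or exact within classes and below 10 calves (Python 3.11.15, scipy 1.17.1). A list was taken to fall into sets where a gap exceeded 0.2 of its range with at least 6 calves on either side.

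The miRNAs named are all members, the 3 miRNAs outside the clusters nearest to each of the 5 abundant members, and list members beside a result. A further part of the rule, miRNAs sharing a seed, was not applied, since no sequences were at hand. miR-2419-3p was named after its value was seen. The members, the lists and the code class were chosen with earlier results of these data known. The p-values measure the spread between calves, each of which gave 1 library. Code was tested on simulated data.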

Additional observations from a re-analysis of the deposited data

How the results depend on the processing

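No paired analysis was possible because each calf belongs to 1 diet and the labels share no replicate number between diets. Of all miRNAs, 0 passed the thresholds for diet. The number was 1 with DESeq2, 21 at an unadjusted p under 0.05, and 0 to 1 with each calf left out, the 1 being miR-2419-3p without HI calf A77860 or MOD calf A97854. For the members it was 0 in each alternative run. The diet log2 fold change of miR-23a turned to 0.0137 with upper quartile factors and 0.00775 with the endothelial score as a term, and ran from -0.0866 to 0.0481 over left-out calves. With the code class as a term those of miR-24-3p, miR-27a-3p and miR-27b turned to -0.00236, -0.0657 and -0.0481, and that of miR-27a-5p turned to -0.0196 with edgeR and -0.0193 with DESeq2. The depth difference of miR-23a turned to -0.00556 with DESeq2's size factors. None of these passed a threshold before or after, and the cause of each turn was not tested.

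For HI minus MOD in log2 ratios, miR-23b-3p over miR-23a was -0.00423 in shallower libraries and -0.0180 in the 9 lowest codes. miR-27b over miR-27a-3p was 0.0224 in deeper libraries, 0.0405 in the other 21 codes and -0.0189 to 0.00311 over left-out calves. miR-27a-3p over miR-23a was -0.0643 in the other 21 codes, and miR-27b over miR-23b-3p was -0.17 in deeper libraries and -0.15 in the other 21 codes. miR-27a-5p over miR-27a-3p was 0.00994 at a pseudocount of 0.1 CPM, 0.14 in shallower libraries, 0.29 in the other 21 codes and -0.0878 to 0.0580 over left-out calves.

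The 10 pairs of members with an adjusted p under 0.05 became 1 with library size only, 2 in deeper libraries and 6 in the 9 lowest codes. The 15 relations to lists became 7 with library size only, 9 in shallower libraries, 2 in deeper libraries and 4 in the 9 lowest codes, with fewer calves in each class, but 18 in the other 21 codes. These are counts, and the 7 were not all among the 15. New with library size only were miR-23b-3p with the oligodendrocyte list (r = 0.497) and miR-27a-3p with the choroid plexus list (r = -0.507). Both had an adjusted p of 0.0243 (permutation tests), against 0.0626 and 0.0509 with the deposited scaling. With library size only the endothelial relations of miR-23a and miR-24-3p turned to -0.363 and -0.00441, that of miR-27b over miR-27a-3p to 0.13, and the neuronal one of miR-23b-3p to 0.16. The last was 0.34 among the 21 calves below the gap of the pituitary list. No scaling moved the median log2 fold change of all miRNAs by over 0.1. Depth limits miR-23b-5p, which the filter left out, and miR-27a-5p. The splits by pituitary list and the ratios against lists were chosen after seeing the data.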
